A study of Mus musculus with 2 samples.

Results

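Vascular endothelial growth factor (VEGF) and angiopoietin signalling was followed through 10 genes, the ligands Vegfa, Vegfb, Vegfc and Angpt1 and the receptors Flt1, Kdr, Flt4, Nrp1, Tek and Tie1. They were taken by name from the count tables, which listed all 10 among 23906 genes in the brain library and 23156 genes in the lung library. The study sorted GFP+ cells out of adult brain and lung tissue of Nestin-GFP mice (labelled C57BL/6, about 6 weeks old) by FACS, after mincing and trypsin digestion, a reporter used to enrich neural stem cells and to characterize such cells of the lung beside those of the brain. Each organ gave 1 droplet library of single cells with 3′ counting of unique molecular identifiers (UMIs), so that there were no replicates and no comparison here carries a p-value. GFP was driven by Nestin regulatory elements in both groups, and the libraries therefore hold cells sorted as GFP+ rather than the whole organ. The study described the labelling by this reporter as unspecific in lung. Neither the labels nor the methods say how many mice went into a library, and the methods describe crosses of transgenic mice with CD1 or mixed CD1 and C3H animals, unlike the strain label.

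The VEGF ligands are secreted by cells around vessels and bind receptor tyrosine kinases on endothelial cells. VEGF-A acts mainly through VEGFR2 (Kdr), while VEGFR1 (Flt1) binds it tightly with a weak kinase and can hold it back, and VEGF-B binds VEGFR1. VEGF-C is the ligand of VEGFR3 (Flt4), the receptor best known from lymphatic endothelium, and Nrp1 is a co-receptor for VEGF-A that also binds class-3 semaphorins. Angiopoietin 1, known as a product of pericytes and other cells next to the endothelium, activates Tie2 (Tek) and keeps vessels quiescent, and Tie1 is a related receptor that modulates Tie2.

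Levels are given as CPM, the UMIs of a gene per 1000000 UMIs of all genes, both summed over a class of cells. Intervals on a level are exact Poisson 95% intervals and those on a ratio of levels are exact conditional binomial 95% intervals. They cover counting error only, not the spread between animals or libraries. A ratio was counted as a difference where it was at least 2 or at most 0.5 and its interval excluded 1. A count of 0 was given the limit that 3 counts would set, but a gene with 0 UMIs in 1 class was counted as a difference where the interval excluded 1, whatever that limit. Orders of classes are among the named classes. Levels of the same gene were compared between classes. Levels of different genes were not compared, except as shares of a pair, and those of 5 receptors were also summed.

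After filtering, 4151 brain cells (median 4209 UMIs) and 5608 lung cells (median 5585 UMIs) remained, and the libraries had 15 cell barcodes in common. The lung mesenchymal factor Tbx4 was at 0.564 CPM in brain and 176 CPM in lung. Nes itself had a UMI in 18.7% of brain cells and 64.6% of lung cells. Clusters were named from markers that excluded all genes of the pathway. They gave 9 classes in brain and 8 in lung, with 838 brain cells (20.2%) and 897 lung cells (16.0%) left unnamed. The vascular classes were endothelial-like cells (329 in brain and 614 in lung), brain mural-like cells (169), lung pericyte-like cells (2107) and lung smooth muscle-like cells (95). Fibroblast-like cells numbered 66 in brain, and lung held 698 matrix fibroblast-like and 1007 myofibroblast-like cells. The brain glial classes were quiescent neural stem cell (qNSC)-like cells (830, not separated from astrocytes), oligodendrocyte precursor (OPC)-like cells (229), mature oligodendrocyte (mOL)-like cells (168) and ependymal-like cells (125), beside 1363 neuroblast (NB)-like and 34 microglia-like cells. The remaining lung classes were small, with 33 neural-like, 35 epithelial-like and 122 T lymphocyte-like cells. The epithelial-like cells were led by Ccl21a, Krt5, Krt14 and MHC class II genes, and no class of alveolar epithelial cells was named.

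The upstream sequence of 3 receptor genes is shown because all 3 were highest in endothelial-like cells, while Flt1 and Kdr differed between the organs and Tek hardly did. The windows are from RefSeq on GRCm38.p6 and end at the base before the annotated gene, which leaves 250 bases for Flt1 and Tek and 247 for Kdr. Flt1 (chr5:147726012-147726261, minus strand) and Kdr (chr5:75978459-75978705, minus strand) lie on the same chromosome, and Tek (chr4:94739039-94739288, plus strand) lies on another. Capitals mark AGGAAG, a sequence of the kind bound by ETS transcription factors.
Flt1: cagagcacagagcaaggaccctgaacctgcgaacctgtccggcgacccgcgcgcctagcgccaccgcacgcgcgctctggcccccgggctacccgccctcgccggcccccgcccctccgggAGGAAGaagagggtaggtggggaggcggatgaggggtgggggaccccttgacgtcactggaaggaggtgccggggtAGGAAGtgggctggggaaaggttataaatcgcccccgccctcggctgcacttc
Kdr: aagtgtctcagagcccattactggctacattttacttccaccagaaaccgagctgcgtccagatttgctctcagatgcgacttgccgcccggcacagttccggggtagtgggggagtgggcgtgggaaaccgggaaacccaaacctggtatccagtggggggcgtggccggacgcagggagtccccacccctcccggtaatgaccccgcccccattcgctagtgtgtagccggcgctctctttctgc
Tek: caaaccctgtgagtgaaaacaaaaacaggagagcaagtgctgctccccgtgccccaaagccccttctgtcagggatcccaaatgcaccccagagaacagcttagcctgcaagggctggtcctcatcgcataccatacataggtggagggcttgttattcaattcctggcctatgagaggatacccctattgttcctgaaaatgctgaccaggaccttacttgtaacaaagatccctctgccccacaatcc
The Flt1 window held AGGAAG 2 times, and the Kdr and Tek windows held it on neither strand. AGGAAG, read on both strands, was found in 29.5% of 32851 windows of 250 upstream bases, CGGAAG in 13.6% and either of them in 39.2%. None of the 3 windows held CGGAAG or ACGTG, the core of the hypoxia response element, which was found in 16.6% of all windows. A match is a description of the sequence, not a site in use. Of the 10 genes, 9 had a RefSeq window, and Angpt1 had none. Beyond the windows shown, in 250 bases that could reach into the gene, AGGAAG or CGGAAG occurred 2 times for Tie1 and 1 time for Nrp1. ACGTG occurred 1 time in 1 of the Vegfa windows, and those of Vegfb, Vegfc and Flt4 held none of these sequences.

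In brain, 7 of the 10 genes had their highest level in endothelial-like cells, where 9.20% of the 22766 genes compared did. These were the 6 receptors and Vegfc. In lung, 8 of the 10 genes were highest in endothelial-like cells, where 13.1% of 22471 genes did, because Vegfa joined them. Vegfb and Angpt1 were highest elsewhere in both organs. The sum of Flt1, Kdr, Flt4, Tek and Tie1 was 4834 CPM in brain endothelial-like cells and 261 CPM in mural-like cells, a ratio of 18.5 (15.5 to 22.3). In lung the same sum was 1530 CPM in endothelial-like cells and 25.5 CPM in pericyte-like cells, a ratio of 60.0 (53.2 to 67.9). Flt1 gave 4164 of the 6096 UMIs in brain endothelial-like cells and 103 of the 122 in mural-like cells. In lung it gave 1830 of 5367 in endothelial-like cells and 15 of 279 in pericyte-like cells, so that the gap between these ratios depends on Flt1. UMIs of all 5 receptors were found in 8.51% of the 329 brain and 7.82% of the 614 lung endothelial-like cells, while 1 brain cell and 6 lung cells had a UMI of none of them.

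**Figure D1:**
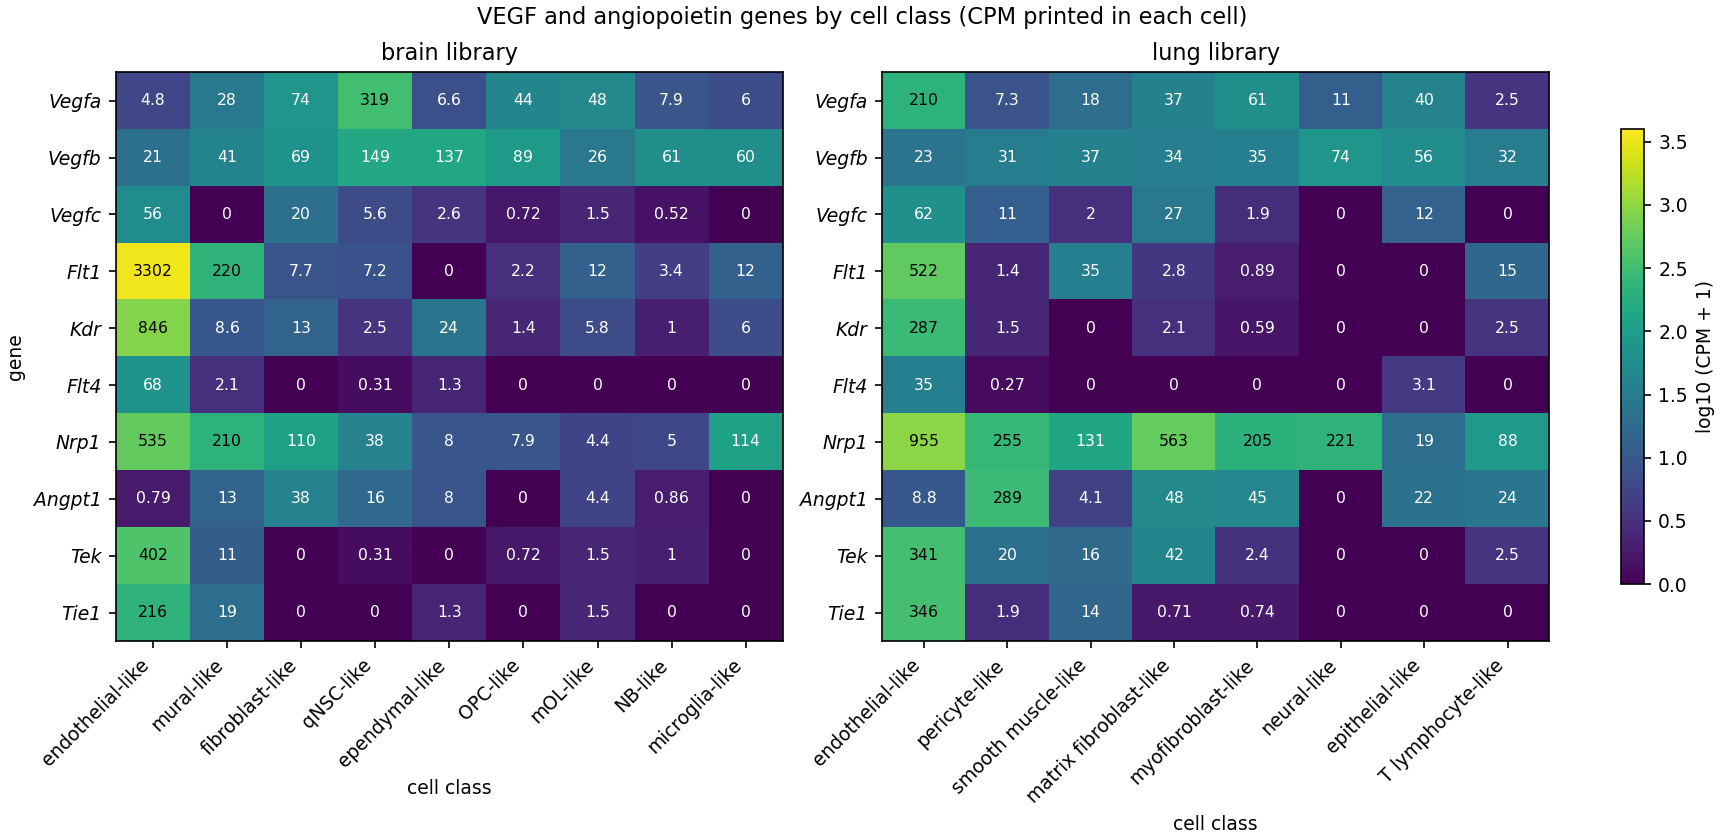
Level of each of the 10 genes (CPM printed in each field, colour as log10(CPM + 1)) in each named class of the brain and lung libraries, from summed UMIs of 1 library per organ. The receptor genes stand out in both endothelial-like columns, Vegfa in the qNSC-like and the lung endothelial-like columns and Angpt1 in the lung pericyte-like column.

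Vegfa, the principal ligand of the family, was at opposite ends of the order in the endothelium of the 2 organs. In brain it was highest in qNSC-like cells, at 319 CPM (300 to 340, 1021 UMIs), followed by fibroblast-like cells at 74.1 CPM (49.6 to 106). The qNSC-like level was 4.31 (2.98 to 6.47) times that of fibroblast-like cells. Next came mOL-like cells at 48.1 CPM, OPC-like cells at 43.9 CPM and mural-like cells at 27.8 CPM, whose intervals overlapped their neighbours in this order. NB-like, ependymal-like and microglia-like cells were between 6.02 and 7.91 CPM. Endothelial-like cells were the lowest class in brain, at 4.76 CPM (1.75 to 10.4, 6 UMIs), and their interval overlapped those of these 3 classes.

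The qNSC-like level was not even. The cluster led by Htra1 and Cxcl14 was at 411 CPM of Vegfa, and the cluster led by Thbs4 and Gfap, genes known from neurogenic astroglia, was at 81.7 CPM. The latter value lay within the interval of the brain fibroblast-like cells (49.6 to 106), so that the lead of the class did not hold for this cluster. A further cluster of shallow cells, with a median of 1424.5 UMIs, was at 678 CPM. A Vegfa UMI was present in 54.3% of qNSC-like cells and in 1.82% of brain endothelial-like cells, with median depths of 3614 and 3798 UMIs. At an equal depth of 1000 UMIs per cell, these shares were 26.0% and 0.838%.

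In lung, endothelial-like cells had the highest Vegfa level of the named classes, among which alveolar epithelium was missing. It was 210 CPM (196 to 226, 738 UMIs), which was 3.44 (3.04 to 3.89) times that of myofibroblast-like cells. Myofibroblast-like cells were at 61.2 CPM, epithelial-like cells at 40.4 CPM and matrix fibroblast-like cells at 37.0 CPM. Pericyte-like cells were at 7.31 CPM (5.80 to 9.10), near the low end. A Vegfa UMI was found in 57.0% of lung endothelial-like and 3.32% of pericyte-like cells, or 18.8% and 0.703% at 1000 UMIs per cell. Between the organs, the endothelial-like level was 44.2 (20.2 to 121) times higher in lung. The opposite order held for the cells around the vessels, where the lung pericyte-like level was 0.263 (0.145 to 0.515) of the brain mural-like level.

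Vegfb was spread widely and was low in the endothelium. In brain it was highest in qNSC-like cells at 149 CPM (136 to 163), and ependymal-like cells at 137 CPM (111 to 166) were not distinguishable from them, with a ratio of 1.09 (0.879 to 1.36). OPC-like cells were at 89.3 CPM, and fibroblast-like, NB-like and microglia-like cells were between 60.2 and 69.0 CPM. Brain endothelial-like cells had the lowest Vegfb level, 20.6 CPM (13.5 to 30.2), with mOL-like cells next at 26.2 CPM (15.5 to 41.4). In lung, neural-like cells were at 73.7 CPM (39.3 to 126, 13 UMIs) and epithelial-like cells at 56.0 CPM, a ratio of 1.32 (0.593 to 2.84). The other lung classes lay between 31.3 and 37.0 CPM, except endothelial-like cells at 23.1 CPM, again the lowest class, with 0.739 (0.573 to 0.944) of the pericyte-like level. The endothelial-like levels of both organs did not differ beyond counting error, with a lung-to-brain ratio of 1.12 (0.712 to 1.82).

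Vegfc differed from the other VEGF ligands in being highest in the endothelium of both organs. Its level was 55.5 CPM (43.3 to 70.1, 70 UMIs) in brain and 62.4 CPM (54.5 to 71.3, 219 UMIs) in lung endothelial-like cells. The ratio of lung to brain was 1.13 (0.856 to 1.49). Fibroblasts came next in each organ, brain fibroblast-like cells at 20.5 CPM (8 UMIs) and lung matrix fibroblast-like cells at 26.7 CPM. No Vegfc UMI was found in brain mural-like cells, which allows up to 6.42 CPM, whereas lung pericyte-like cells were at 10.8 CPM (8.93 to 12.9, 118 UMIs). The pericyte-like level was therefore at least 1.68-fold higher than the brain mural-like level.

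Flt1, which encodes VEGFR1, was found at 3302 CPM (3202 to 3404, 4164 UMIs) in brain endothelial-like cells and 522 CPM (498 to 546, 1830 UMIs) in lung endothelial-like cells. A UMI was seen in 98.5% and 86.0% of these cells, and in 92.2% and 39.6% at 1000 UMIs per cell. The brain level was 6.33 (5.99 to 6.69) times the lung level. Endothelial-like cells were the highest class in both organs.

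Brain mural-like cells were the second class for Flt1, at 220 CPM (180 to 267, 103 UMIs), with a UMI in 35.5% of cells. In qNSC-like cells, which served as background, the share was 1.81%, and the median depths were 2559 UMIs in mural-like and 3614 UMIs in qNSC-like cells. Lung pericyte-like cells had 15 Flt1 UMIs in 2107 cells, or 1.37 CPM, which was 0.00622 (0.00336 to 0.0107) of the brain mural-like level, or 0.0151 of it where single cells were gated on markers. Lung smooth muscle-like cells were at 34.9 CPM (17 UMIs). Every other class of both organs was at 14.7 CPM or lower.

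Endothelial RNA can be carried into other cells, so each receptor was set beside endothelial markers in the same cells, as a percentage of the endothelial-like level of that library. In brain mural-like cells Flt1 was at 6.67% (5.43 to 8.11) of the endothelial-like level. The junction genes Pecam1, Cdh5 and Cldn5 were at 0.935%, 0.808% and 0.410%, and Egfl7, Ramp2, Cd93 and Ly6c1 between 0.476% and 2.0%. Esam, Emcn and Eng were at 40.9%, 38.4% and 28.9%. The junction genes moved with Flt1 among these cells, since their sum was 112 CPM (68.1 to 172, 20 UMIs) in the 60 mural-like cells with a Flt1 UMI and 13.9 CPM (3.78 to 35.6, 4 UMIs) in the 109 without. All 10 endothelial markers summed to 1255 CPM (1096 to 1430) and 909 CPM (803 to 1027) in the same cells. In the 160 mural-like cells that had no UMI of the junction genes, Flt1 was at 175 CPM (138 to 218, 77 UMIs). The part of endothelial RNA in the Flt1 level was not tested. In lung smooth muscle-like cells Flt1 was at 6.69% of the endothelial-like level and Pecam1, Cdh5 and Cldn5 between 1.28% and 2.54%. There, the 10 cells with a Flt1 UMI had 624 CPM of the junction genes (41 UMIs) against 9.50 CPM in the other 85 (4 UMIs), and Flt1 was at 23.0 CPM (10 UMIs) in the 88 cells with no junction gene UMI.

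**Figure D2:**
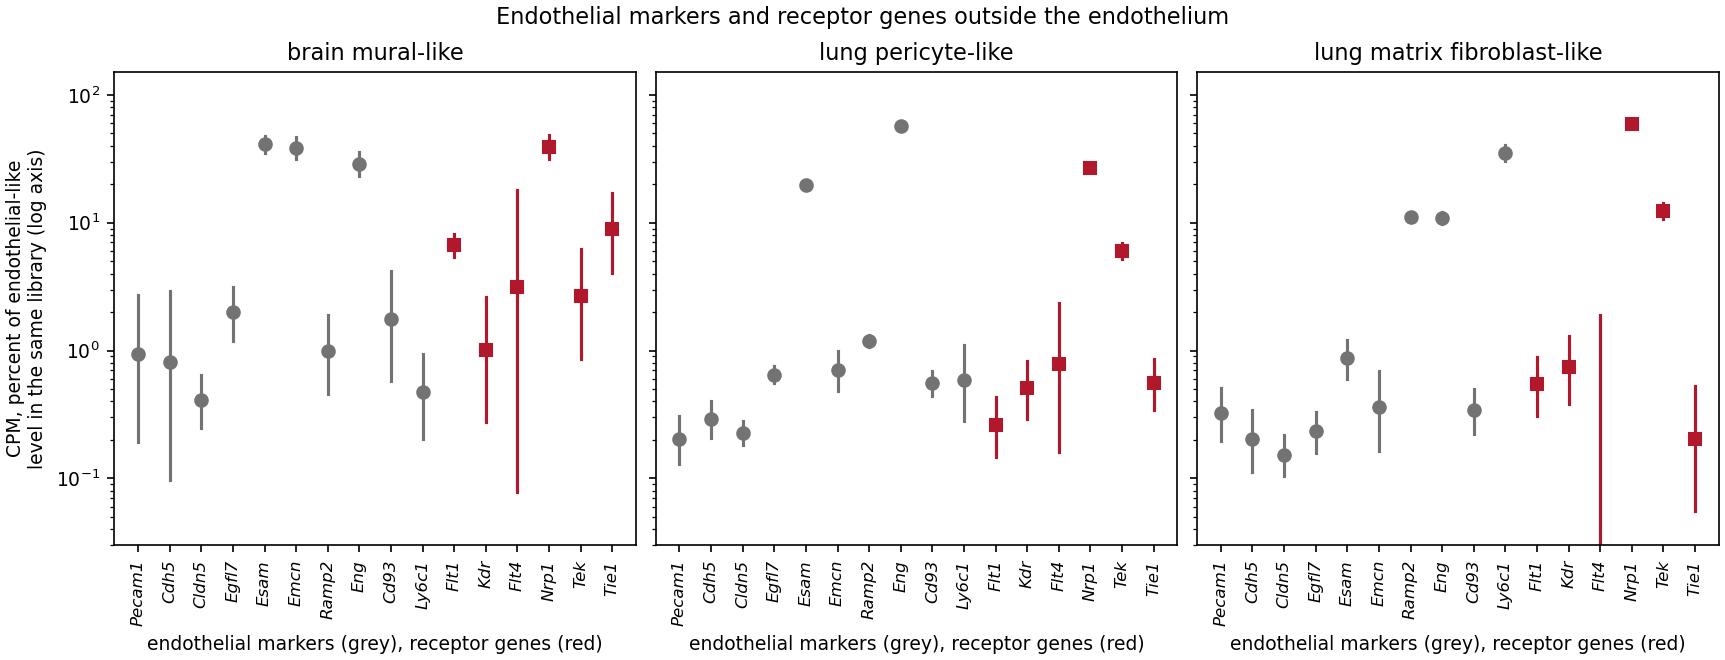
Level of 6 receptor genes (red squares) and of 10 endothelial markers (grey circles) in brain mural-like, lung pericyte-like and lung matrix fibroblast-like cells, as a percentage of the level in the endothelial-like cells of the same library (log axis, points with 95% intervals). Flt1, Tie1 and Nrp1 in brain mural-like cells and Tek and Nrp1 in lung pericyte-like and matrix fibroblast-like cells have intervals above those of Pecam1, Cdh5 and Cldn5. Esam and Eng are also high in mural-like and pericyte-like cells, Emcn in mural-like cells and Ly6c1, Ramp2 and Eng in matrix fibroblast-like cells. Flt4 was at 0 in matrix fibroblast-like cells and shows as an interval without a point.

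Kdr, the main signalling receptor for VEGF-A, was at 846 CPM (796 to 898, 1067 UMIs) in brain and 287 CPM (269 to 305, 1006 UMIs) in lung endothelial-like cells. It was detected in 85.7% and 57.3% of these cells. The lung level was 0.339 (0.311 to 0.370) of the brain level, a smaller gap than for Flt1. Mural-like cells carried 4 Kdr UMIs in brain (8.56 CPM) and pericyte-like cells 16 in lung (1.46 CPM). The ratio of these levels, 0.171 (0.0551 to 0.702), had an interval that included 1 in 4 of the alternative analyses.

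The second class for Kdr in brain was ependymal-like cells, the ciliated lining of the ventricles, at 23.9 CPM (14.1 to 37.7). This interval overlapped those of several classes, among them fibroblast-like cells at 12.8 CPM (4.15 to 29.8). The ependymal-like level came from 18 UMIs in 11 of 125 cells. No Flt1 UMI was found among the 754015 UMIs of the ependymal-like class, which allows up to 3.98 CPM. Pecam1 and Cdh5 were at 0 as well, and Cldn5 was at 0.0401% of the endothelial-like level, while Kdr was at 2.82% (1.67 to 4.48). The 11 cells with a Kdr UMI had no UMI of the 10 endothelial markers.

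Among the UMIs of Flt1 and Kdr, Flt1 made up 79.6% (exact Clopper-Pearson interval 78.5 to 80.7) in brain and 64.5% (62.7 to 66.3) in lung endothelial-like cells. In brain mural-like cells its share was 96.3% (90.7 to 99.0), in ependymal-like cells 0% (0 to 18.5) and in lung smooth muscle-like cells 100% (80.5 to 100, 17 UMIs). The lung value was a mixture, with 81.8% (79.1 to 84.2) in the largest endothelial-like cluster and 57.3% and 54.7% in the others, so that the brain value lay within the range of the lung clusters. In lung pericyte-like cells the share was 48.4% (30.2 to 66.9), on few UMIs.

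Flt4 was rare, with 90 UMIs in all of the brain cells and 126 in all of the lung cells. Of these, 86 and 122 were in endothelial-like cells, at 68.2 CPM (54.5 to 84.2) in brain and 34.8 CPM (28.9 to 41.5) in lung. The lung-to-brain ratio was 0.510 (0.384 to 0.680), so that its interval excluded 1 while the value stopped just short of a 2-fold difference. No other class of either organ was above 3.11 CPM. Of the lymphatic markers, the transcription factor Prox1 was at 8.72 CPM in brain endothelial-like cells and at 0 to 2.04 CPM in the larger lung endothelial-like clusters. Lyve1, which is not limited to lymphatic vessels, was at 2.38 CPM in brain, at 1227 and 603 CPM in those lung clusters and at 10.1 CPM (4 UMIs) in the smallest. Pdpn, Ccl21a and Reln were each at 3 UMIs or fewer in the brain cluster and in every lung cluster.

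Nrp1 was the most widespread receptor. In brain it was at 535 CPM (496 to 577) in endothelial-like, 210 CPM (170 to 256) in mural-like, 114 CPM in microglia-like, 110 CPM in fibroblast-like and 38.2 CPM in qNSC-like cells. The remaining named brain classes were at 7.96 CPM or lower. In lung all classes but epithelial-like cells (18.7 CPM) were at 88.2 CPM or more. The lung order was endothelial-like cells at 955 CPM (923 to 988), matrix fibroblast-like at 563 CPM (543 to 583), pericyte-like at 255 CPM (246 to 265), neural-like at 221 CPM (157 to 302) and myofibroblast-like cells at 205 CPM (195 to 216), with neural-like cells not separable from their neighbours. Endothelial-like cells exceeded the second class 2.55-fold (2.06 to 3.19) in brain and 1.70-fold (1.62 to 1.78) in lung.

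Between the organs, Nrp1 was 1.78-fold (1.64 to 1.94) higher in lung endothelial-like cells and 5.12-fold (3.79 to 7.09) higher in matrix fibroblast-like cells than in brain fibroblast-like cells. The latter ratio was 3.24 with no upper limit on genes per cell. The pericyte-like and mural-like levels had a ratio of 1.22 (0.996 to 1.51). Its paralogue Nrp2, which binds VEGF-C and other semaphorins, was at 16.5 CPM in lung and 55.5 CPM in brain endothelial-like cells. This direction did not hold in each lung cluster, since the larger clusters were at 2.04 and 5.48 CPM and the smallest, with 46 of the 58 UMIs, at 116 CPM. Nrp1 accordingly made up 90.6% of the neuropilin UMIs in brain endothelial-like cells and 98.3% in lung endothelial-like cells. OPC-like and ependymal-like cells differed from these, with Nrp1 shares of 20.8% and 23.1%.

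Angpt1, the activating ligand of Tie2, was chiefly found in lung pericyte-like cells, at 289 CPM (279 to 299, 3158 UMIs). This was 6.04 (5.33 to 6.86) times the level of matrix fibroblast-like cells, the second named class at 47.8 CPM (42.3 to 53.8). Unnamed lung cells were higher than the latter, at 90.5 CPM (80.8 to 101, 319 UMIs), with 203 of these UMIs in 1 cluster of 204 cells at 176 CPM. Myofibroblast-like cells were at 45 CPM (40.1 to 50.3), within the interval of the matrix fibroblast-like cells. Endothelial-like cells were at 8.84 CPM (31 UMIs) and smooth muscle-like cells at 4.11 CPM (2 UMIs). A UMI was found in 68.2% of pericyte-like and 3.91% of endothelial-like cells at median depths of 5260 and 5401 UMIs, or in 24.2% and 0.789% at 1000 UMIs per cell. The pericyte-like clusters were uneven, at 317, 307, 221 and 55.3 CPM.

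In brain Angpt1 was low in every class. Fibroblast-like cells were at 38.3 CPM (21.5 to 63.2, 15 UMIs), qNSC-like cells at 16.0 CPM (11.9 to 21, 51 UMIs) and mural-like cells at 12.8 CPM (4.71 to 27.9, 6 UMIs). The level in lung pericyte-like cells was 22.5 (10.3 to 61.3) times that in brain mural-like cells. The class with most Angpt1 was therefore the pericyte-like class in lung and the fibroblast-like class in brain, the latter 2.40 (1.26 to 4.34) times above qNSC-like cells. The fibroblast levels of both organs did not differ beyond counting error, with a ratio of 1.25 (0.742 to 2.26). In the endothelium, 31 UMIs in lung and 1 in brain gave a ratio of 11.1 (1.86 to 454), which was 5.81 (0.903 to 244) once cells called doublets were removed and 5.73 (0.955 to 233) as a mean over cells.

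Angpt2, which competes with Angpt1 for Tie2, was set beside it as a share of the UMIs of the pair. Angpt1 made up 84.3% of the UMIs of both genes in lung pericyte-like cells and 4.26% in smooth muscle-like cells. The share was 62.8% in matrix fibroblast-like cells, 39.5% in brain fibroblast-like cells and 87.9% in qNSC-like cells. An Angpt2 UMI was found in 31 of the 95 smooth muscle-like cells (32.6%), and an Angpt1 UMI in 2 of them.

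Tek, which encodes Tie2, was at 402 CPM (368 to 439, 507 UMIs) in brain and 341 CPM (322 to 361, 1196 UMIs) in lung endothelial-like cells. The lung-to-brain ratio, 0.848 (0.764 to 0.943), was the one closest to 1 among the 5 endothelial receptors. A UMI was found in 74.5% and 76.1% of these cells. Outside the endothelium, brain mural-like cells had 5 Tek UMIs (10.7 CPM) and brain fibroblast-like cells none, which allows up to 7.67 CPM.

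Lung matrix fibroblast-like cells were at 42.1 CPM of Tek (36.9 to 47.8, 238 UMIs in 25.9% of cells) and pericyte-like cells at 20.5 CPM (17.9 to 23.3, 224 UMIs in 9.63% of cells). Myofibroblast-like cells, at 2.36 CPM, had a UMI in 1.59% of cells. Their median depth of 6592 UMIs lay between those of pericyte-like cells (5260) and matrix fibroblast-like cells (8810), and at 1000 UMIs per cell the shares were 4.04% in matrix fibroblast-like, 2.14% in pericyte-like and 0.225% in myofibroblast-like cells. The matrix fibroblast-like level was at least 5.49-fold higher than that of brain fibroblast-like cells. As a percentage of the endothelial-like level, Tek was at 12.4% (10.7 to 14.2) in matrix fibroblast-like and 6.00% (5.18 to 6.93) in pericyte-like cells. Pecam1, Cdh5 and Cldn5 were between 0.153% and 0.327% in both classes. Ly6c1, Ramp2 and Eng were at 35.1%, 11.0% and 10.9% in matrix fibroblast-like cells, Eng and Esam were at 57.5% and 19.8% in pericyte-like cells, and the other markers were at 1.19% or lower. Tie1 was at 0.205% and 0.555%. The sum of Pecam1, Cdh5 and Cldn5 was 10.8 CPM (5.59 to 18.9) in pericyte-like cells with a Tek UMI and 14.4 CPM (12.2 to 17) in those without, and 13.0 CPM (8.16 to 19.7) and 10.9 CPM (7.86 to 14.6) in matrix fibroblast-like cells. All 10 endothelial markers, which there include Ly6c1, Ramp2 and Eng, summed to 491 CPM (459 to 526) in matrix fibroblast-like cells with a Tek UMI and to 371 CPM (353 to 391) in those without, and to 518 CPM (477 to 563) and 540 CPM (526 to 555) in pericyte-like cells. Their part in the Tek levels was not tested. In cells with no UMI of these junction genes, Tek was at 20.6 CPM in 1998 pericyte-like and 42.8 CPM in 644 matrix fibroblast-like cells.

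Tie1, the partner of Tie2, was at 216 CPM (191 to 243, 272 UMIs) in brain and 346 CPM (327 to 366, 1213 UMIs) in lung endothelial-like cells, 1.6-fold (1.40 to 1.84) higher in lung. Few UMIs were found elsewhere. Brain mural-like cells were at 19.3 CPM (9 UMIs), or 8.93% (4.04 to 17.2) of the endothelial-like level, lung smooth muscle-like cells at 14.4 CPM (7 UMIs) and all other classes at 1.92 CPM or lower. Tek made up 65.1% (61.6 to 68.4) of the UMIs of both genes in brain endothelial-like cells, 49.6% (47.6 to 51.7) in lung endothelial-like cells, 91.4% (87.2 to 94.6) in lung pericyte-like cells and 98.3% (95.8 to 99.5) in matrix fibroblast-like cells.

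**Figure D3:**
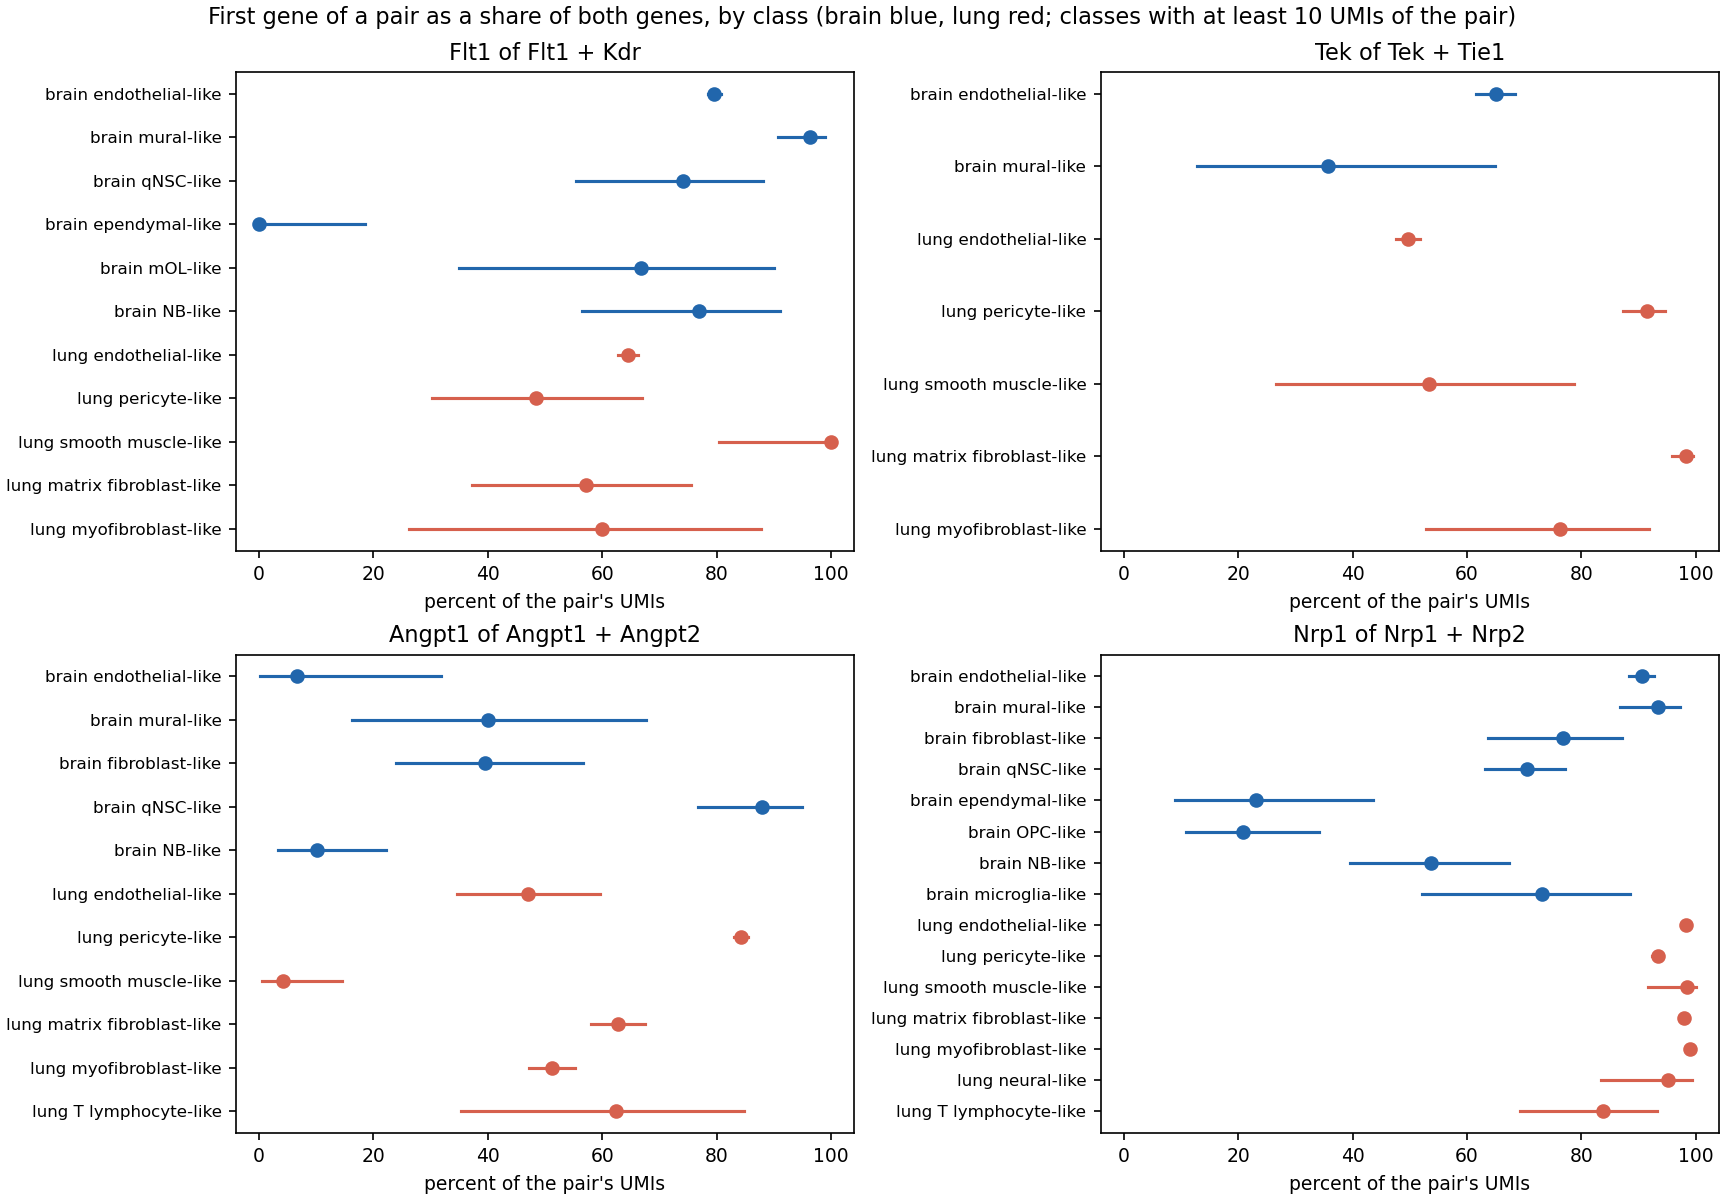
Share of the first gene of a pair among the UMIs of both genes (percent, points with exact 95% intervals) for Flt1 with Kdr, Tek with Tie1, Angpt1 with Angpt2 and Nrp1 with Nrp2, in classes with at least 10 UMIs of the pair (brain blue, lung red). The Flt1 share is 79.6% in brain and 64.5% in lung endothelial-like cells, and the Tek share is 98.3% in lung matrix fibroblast-like cells.

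Set side by side, the endothelial-like cells of the organs differed past 2-fold in the ligands Vegfa and Angpt1 and in the receptors Flt1 and Kdr, with the Angpt1 difference resting on 1 brain UMI and lost in the 2 alternatives given above. Of the 10 genes, 2 were higher in lung (Vegfa and Angpt1), where 7.94% of all 17884 genes were, and 2 were lower (Flt1 and Kdr), where 9.76% were. Vegfa was at 4.76 CPM in brain and 210 CPM in lung, and Flt1 at 3302 and 522 CPM. The median log2 ratio over the 10 genes was 0.17, and over all 10041 genes with enough counts it was -0.01. Sequencing depth, organ and library cannot be told apart here, since each organ is 1 library.

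Lung pericyte-like cells against brain mural-like cells gave 2 higher genes (Angpt1 and Vegfc, background 6.66%) and 4 lower ones (Vegfa, Flt1, Kdr and Tie1, background 11.7%). Vegfc was 1.68-fold higher with 0 UMIs taken as 3 counts, so that a 2-fold difference was not shown. The median gene was shifted by -0.12 on the log2 scale. The 10 endothelial markers summed to 1042 CPM in mural-like cells, mostly from Esam, Emcn and Eng, and to 538 CPM in pericyte-like cells, mostly from Eng and Esam, and their part in the ratios for Flt1 (0.00622) and Tie1 (0.0997) was not tested. The Tek ratio, 1.91 (0.808 to 5.95), reached 2.57 (1.09 to 8.0) as a mean over cells and 4.07 (1.11 to 33.8) with marker gates. Nrp1, Vegfb, Tek and Flt4 were in neither count, Flt4 on 3 and 1 UMIs with a ratio of 0.128 (0.0103 to 6.73).

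Lung matrix fibroblast-like cells against brain fibroblast-like cells gave 2 higher genes (Nrp1 and Tek, background 6.42%) and 3 lower ones (Vegfa, Vegfb and Kdr, background 11.2%), with the median gene shifted by -0.18 on the log2 scale. Vegfa was at 37.0 against 74.1 CPM, a ratio of 0.499 (0.337 to 0.764), and Vegfb at 33.6 against 69.0 CPM, a ratio of 0.487 (0.325 to 0.759). Across the alternative analyses these ratios ran from 0.473 to 0.566 and from 0.463 to 0.553, on both sides of the 2-fold limit. Kdr was at 2.12 CPM (12 UMIs) against 12.8 CPM (5 UMIs), a ratio of 0.166 (0.0545 to 0.602), or 0.304 (0.0996 to 1.10) as a mean over cells. Flt4 had no UMI in either fibroblast class.

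**Figure D4:**
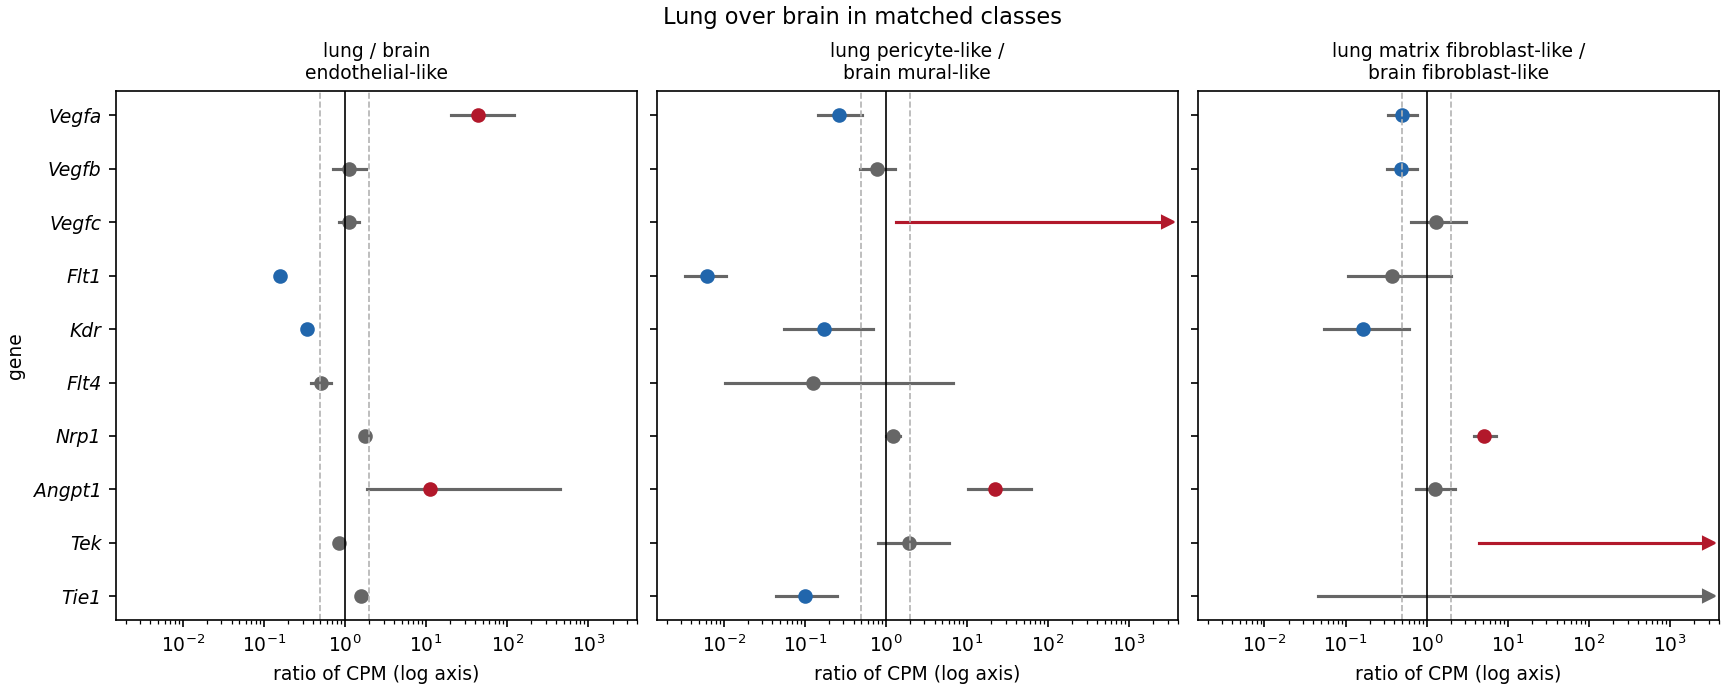
Ratio of the lung level to the brain level of each gene (log axis, points with exact conditional 95% intervals, arrows where the brain class had 0 UMIs) in endothelial-like cells, in pericyte-like over mural-like cells and in matrix fibroblast-like over fibroblast-like cells, with dashed lines at 2-fold. Red marks higher and blue lower genes; Vegfa is 44.2 times higher in the lung endothelium and Flt1 is at 0.158 of the brain level.

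The genes varied further within the lung endothelium. Of the 3 endothelial-like clusters, the first (284 cells) was led by Vwf, Lyve1 and Gja5, the second (255 cells) by Hpgd, Clec1a and Gpihbp1, and the third (75 cells) by Fabp4, Rbp7 and Cd300lg. No vessel type was assigned to them, since the genes of a vessel type did not all follow the same order. Of the arterial genes, Gja5 (578, 217 and 37.9 CPM), Hey1, Bmx, Efnb2 and Sema3g fell from the first to the third cluster. Gja4 was at 1203, 1182 and 432 CPM, and Sox17 was even, at 726, 782 and 695 CPM. Of the capillary genes, Gpihbp1 (33.4, 664 and 1235 CPM), Aplnr and Cd300lg (2.04, 18.3 and 386 CPM) rose. Plvap (872, 994 and 647 CPM), Kit and Glp1r were highest in the second cluster. The genes of the pathway took no part in this clustering. Each cluster was compared with the other endothelial-like cells.

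The first cluster had less Kdr, 110 against 414 CPM, a ratio of 0.266 (0.224 to 0.316), and less Flt4, with a ratio of 0.473 (0.304 to 0.718). These were its 2 lower genes of 10, where 3.68% of all genes were lower. Its 1 higher gene was Angpt1 (ratio 3.39, 1.5 to 8.37, 22 against 9 UMIs, background 3.83%). It rests on the same few lung UMIs as the lung-to-brain Angpt1 difference, which was lost once cells called doublets were removed. Flt1 hardly moved, at 494 against 542 CPM, so that Flt1 made up 81.8% (79.1 to 84.2) of the Flt1 and Kdr UMIs there.

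The second cluster had the most Nrp1, 1200 CPM against 739 CPM, a ratio of 1.62 (1.51 to 1.74). Kdr was at 387 against 199 CPM, a ratio of 1.94 (1.71 to 2.21). Flt4 was its 1 higher gene, at 47.5 against 23.6 CPM (ratio 2.01, 1.37 to 2.98, background 2.61%), and Angpt1 (ratio 0.395) and Vegfc (ratio 0.479) were lower (background 4.70%). The Flt1 share of Flt1 and Kdr was 57.3% in this cluster and 54.7% in the third.

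The third cluster stood apart in Vegfa. It had 27.8 CPM (11 UMIs) where the other endothelial-like cells had 234 CPM, a ratio of 0.119 (0.0591 to 0.214). Tek was lower too, 174 against 362 CPM (ratio 0.481, 0.372 to 0.614), making 2 lower genes against a background of 4.26%. Kdr, at 528 CPM (ratio 2.06, 1.76 to 2.40), and Vegfc, at 116 CPM (ratio 2.09, 1.48 to 2.91), were higher, against a background of 4.78%. This cluster therefore had the highest Kdr level and the lowest Vegfa level of the 3, and its Nrp1 level was 0.536 (0.465 to 0.616) of that in the others.

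**Figure D5:**
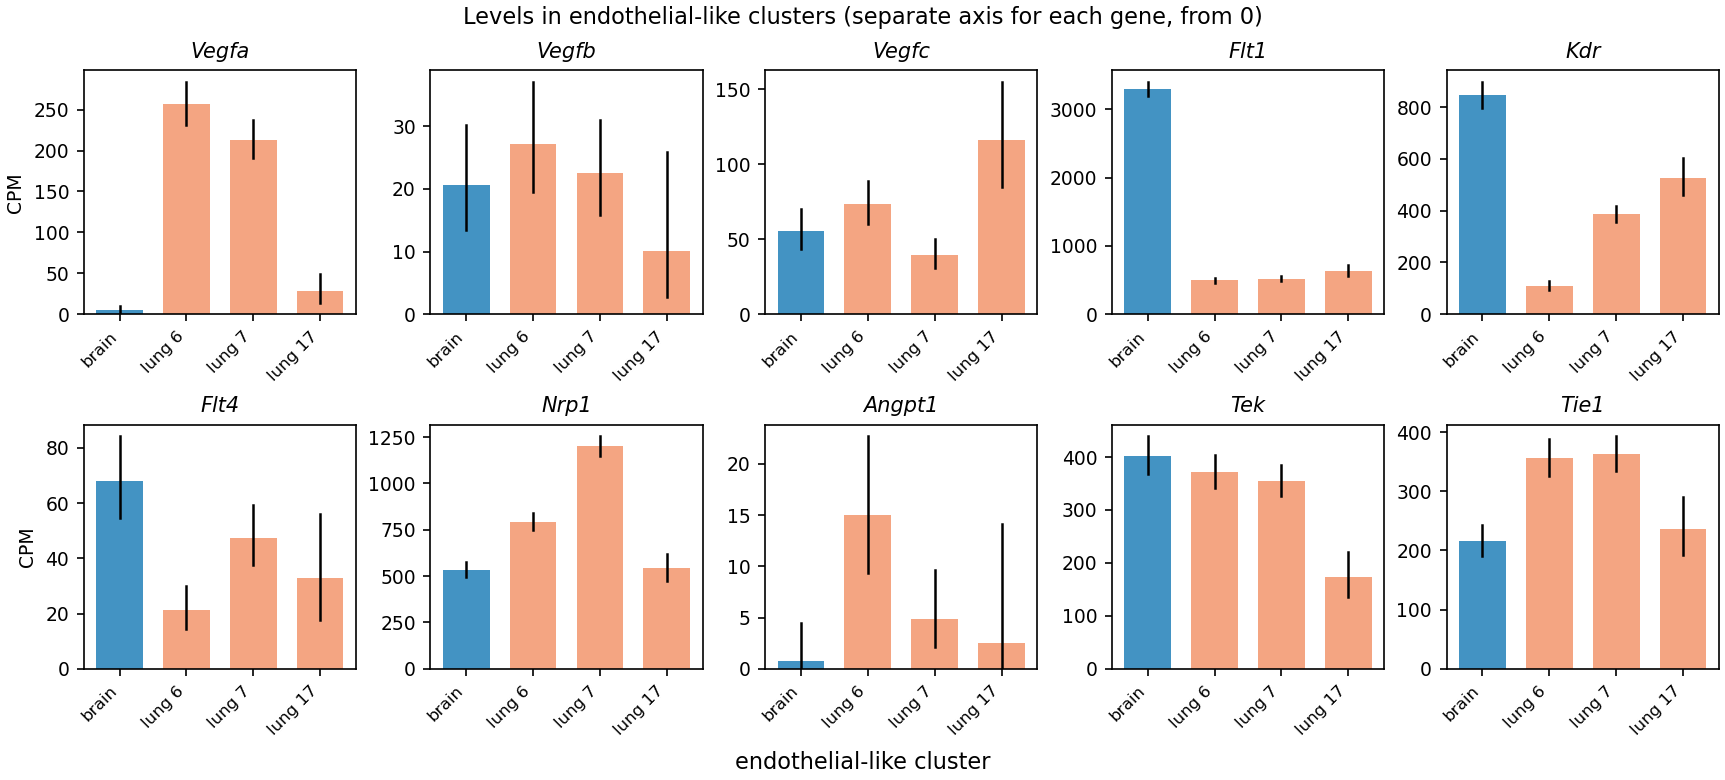
Level of each gene (CPM, bars from 0 with exact Poisson 95% intervals, a separate linear axis for each gene) in the brain endothelial-like cluster (blue) and in the first, the second and the third lung endothelial-like cluster (orange, numbered 6, 7 and 17 in the clustering). Vegfa is at 257 and 213 CPM in the larger lung clusters, 27.8 CPM in the smallest and 4.76 CPM in brain, while Kdr runs from 110 to 528 CPM within lung.

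Aerocytes, the lung capillary cells that express Ednrb and Apln and are known for high Kdr, were looked for by those genes. The 351 lung endothelial-like cells with an Ednrb or Apln UMI had 255 CPM of Kdr and the other 263 had 335 CPM, a ratio of 0.762 (0.672 to 0.864). Flt4 was also lower in them, with a ratio of 0.628 (0.433 to 0.911), and the intervals of the other 8 genes included 1. Of these 351 cells, 175 came from the first cluster, which had the lowest Kdr level. Within the clusters the Kdr ratio was 0.573 (0.416 to 0.790) in the first, 0.753 (0.642 to 0.882) in the second and 1.52 (1.12 to 2.11) in the third, so that its direction turned in the third, and the Flt4 intervals included 1 in each. Ednrb was at 710, 430 and 232 CPM in the 3 clusters, and Car4, another aerocyte gene, was at 0, 55.4 and 68.2 CPM and Apln at 0.681, 12.2 and 63.2 CPM, so that these markers did not point to the same cluster.

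The other genes of the pathway, 35 in all and 34 of them listed in brain, gave 4 higher and 10 lower genes in lung over brain endothelial-like cells, where 7.94% and 9.76% of all genes were. Among the genes known to respond to VEGF, Esm1 was at 5.55 CPM in brain (7 UMIs, all in 1 of the 329 cells) and 107 CPM in lung (ratio 19.3, 9.26 to 48.2) and the Notch ligand Dll4 at 84.8 and 365 CPM (ratio 4.30, 3.53 to 5.29). The rest of that list were Rcan1, at 27.8 CPM in brain and 39.6 CPM in lung, and Dusp5, at 0 and 7.70 CPM. Among effectors, Nos3, the endothelial nitric oxide synthase, was lower in lung, at 53.3 against 133 CPM (ratio 0.40), as were the receptor adaptors Gab1 (ratio 0.332) and Shb (ratio 0.453). Ptprb, the phosphatase that acts on Tie2, was at 1707 CPM in brain and 1925 CPM in lung. Of the 6 genes known to respond to hypoxia, 3 were lower in lung and 3 were in neither count. Slc2a1, the glucose transporter of the blood-brain barrier, was at 1727 CPM in brain and 9.41 CPM in lung, Bnip3 at a ratio of 0.348 and Adm at 0.205, the latter on 12 lung UMIs in 4 of 614 cells. Ankrd37 was at 47.6 CPM in brain and 53.9 CPM in lung, Pfkfb3 at 8.72 and 5.42 CPM, and Car9 had no UMI in either. Epas1, which encodes HIF-2α, was at 1090 CPM in brain and 1375 CPM in lung endothelial-like cells.

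Semaphorins that compete for neuropilins differed in kind. Sema3c was at 480 CPM in brain and 157 CPM in lung endothelial-like cells (ratio 0.326), and Sema3f was at 3.96 and 90.7 CPM (ratio 22.9). Within the lung endothelium Sema3c was 30.0-fold higher in the second cluster than in the others, the cluster with most Nrp1. In the third cluster Nrp2 was 30.1-fold higher than in the others, and Nrp1 made up 82.3% of neuropilin UMIs there.

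Outside the endothelium, 5 of the 35 other genes were higher (background 6.66%) and 8 lower (background 11.7%) in lung pericyte-like than in brain mural-like cells. In the fibroblast comparison 5 were higher (background 6.42%) and 7 lower (background 11.2%). Where a count of 0 was taken as 3 counts, 4 were higher there, against 6.00% of all genes. The further ligands had sources of their own. Figf (VEGF-D), a second ligand of VEGFR3, was at 176 CPM (996 UMIs) in lung matrix fibroblast-like cells and had no UMI in brain fibroblast-like cells. Pgf, which binds VEGFR1, was at 49.2 CPM in brain mural-like and 47.5 CPM in lung myofibroblast-like cells, with lung epithelial-like cells at 52.9 CPM (30.8 to 84.7, 17 UMIs) and unnamed lung cells at 64.9 CPM. Angpt2 was at 92.5 CPM in lung smooth muscle-like, 53.6 CPM in pericyte-like and 58.8 CPM in brain fibroblast-like cells, and its pericyte-like to mural-like ratio was 2.79 (1.46 to 6.12).

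Genes with a pattern like that of each member were sought over the 17 named classes of both organs, among 9377 genes, by Pearson's correlation of log2(CPM + 10). The classes share libraries and depth, and the values are descriptions. Flt4 was most like Eltd1 (0.992), Podxl (0.981) and Robo4 (0.980), Kdr most like Nos3 (0.983), Tie1 most like Arhgef15 (0.980), and Tek most like Adcy4 (0.937) and Sox18 (0.934), all of them high in endothelial-like cells. Flt1 was most like Abcb1a (0.94), a transporter of the blood-brain barrier, and Gpr116 (0.935). Nrp1 was most like Acvrl1 (0.904), Vegfc most like Tmem252 (0.896), Angpt1 most like Lepr (0.842) and Nox4 (0.839), Vegfb most like Gprasp2 (0.842) and Vegfa most like Ppap2b (0.779) and the astroglial gene Fgfr3 (0.764).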

How the data were processed

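The 10 genes, the list of 35 other pathway genes and the markers were chosen with earlier results of these data known. The authors deposited 1 table per library of UMI counts per gene and cell, not normalized, made per the labels with bcl2fastq 2.19.1.403, UMI-tools 1.0.0, STAR 2.7.1a and featureCounts 1.6.4 on mm10. How barcodes were taken as cells and whether counting used strand are not given in the sources used here. The tables held 4640 brain and 5981 lung barcodes and 26221173 and 36816962 UMIs. The limits in the study's methods were used, more than 200 and fewer than 4000 genes per cell and under 40% of counts from mitochondrial genes. Genes in at least 3 cells were used for clustering. The study's maps showed 4640 brain and 5981 lung cells, as many as the barcodes held, so that fewer cells were kept here. The upper limit on genes removes the deepest cells.

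Each library was clustered with Seurat 5.3.0 in R 4.3.3 (2000 variable genes without cell-cycle and pathway genes, 20 principal components, resolution 0.8). A cluster was named where the mean of its markers, as log2(CPM + 10) minus the mean over clusters, was at least 1, led by 0.5 and had at least 3 markers in 20% of cells or more. Cells called doublets by Scrublet in scanpy 1.11.5 (44 in brain, 1.06%, and 74 in lung, 1.32%) were kept, and their removal was an alternative. Counts were summed per class, and ratios and intervals were computed with scipy 1.17.1 and tested on simulated data. Shares at 1000 UMIs per cell are expected values after thinning and leave out shallower cells, of which there were 11 and 5 in brain and lung endothelial-like, 5 and 2 in mural-like and pericyte-like, 44 in qNSC-like and 0 and 6 in brain and lung matrix fibroblast-like cells. The text names all 10 genes, pathway genes from the list, the leading genes of clusters and, for each member, the genes of highest correlation among those with at least 50 CPM in a class. The splits of cells by junction genes and by Ednrb or Apln within clusters were chosen after seeing the data. Gene positions were not converted between builds. Alternatives changed the cell filters, resolution, doublets, the definition of classes, the weight of cells, the total behind CPM, the scaling, the fold and a minimum count of UMIs.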

Additional observations from a re-analysis of the deposited data

Results flagged for a closer look

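3 of the 10 genes had ratios between neighbouring cell classes whose intervals lay on opposite sides of 1 in brain and lung. Each organ is 1 library, so the difference between the organs was not tested. Among all genes found in both organs, 3.63% of 15258 had intervals on opposite sides of 1 for endothelial-like over mural-like or pericyte-like cells, and 3.02% of 14529 for fibroblasts over these cells. Vegfa in endothelial-like cells was at 0.171 (0.0533 to 0.482) of the mural-like level in brain, on 6 and 13 UMIs, and at 28.8 (22.8 to 36.7) times the pericyte-like level in lung. Nrp1 in fibroblast-like cells was at 0.524 (0.357 to 0.758) of the mural-like level in brain, whereas in lung the matrix fibroblast-like level was 2.20 (2.09 to 2.32) times the pericyte-like level. Angpt1 went the other way, with a fibroblast-to-mural ratio of 2.99 (1.10 to 9.40) in brain, on 15 and 6 UMIs, and 0.166 (0.146 to 0.188) in lung.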

How the results depend on the processing

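Of 86 alternative values for the counts of genes and the receptor sums, 80 stayed within their limits, 6 moved and 0 reversed. Under every alternative run, 7 genes in brain and 8 in lung were highest in endothelial-like cells. The lung ratio of summed receptors was 51.3 with less than 10% mitochondrial counts allowed (60.0 as reported). Of the 5 fibroblast differences, 3 were left with the mean over cells, with a total without mitochondrial and ribosomal protein genes, with median-ratio scaling and, chosen after seeing the data, leaving out clusters whose 10 leading genes held none of their own markers. With 0 UMIs taken as 3 counts, also chosen after seeing the data, 1 gene in place of 2 was higher in lung pericyte-like than in brain mural-like cells, where 6.18% of all genes were. At 1.5-fold, 7 genes in place of 4 differed between lung and brain endothelial-like cells, where 11.1% of all genes were higher and 13.0% lower. Of 460 alternative values for single genes, 447 stayed within the reported interval, 13 left it and 0 reversed, and 19 lost and 3 gained a 2-fold difference. The Kdr ratio of lung pericyte-like to brain mural-like cells was 0.459 with the stricter mitochondrial limit, 0.269 without doublets, 0.402 with marker gates and 0.308 with the mean over cells. The causes were not tested. No paired analysis was possible because each organ has 1 library. Classes of few cells limit the depth, since 0 UMIs allowed up to 7.67 CPM in brain fibroblast-like and 6.42 CPM in brain mural-like cells.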

Other observations

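Clusters that could not be named also held these genes. In brain, a cluster led by genes of excitatory neurons such as Neurod1, Eomes and Tbr1 had 279 CPM of Nrp1, above the mural-like level and below the endothelial-like level. In lung, Nrp1 was at 910 CPM (751 UMIs) in a cluster led by Ptn, C3, Mmp9 and Apod, and at 719 CPM in a cluster led by Fabp7, Parm1 and Dlk1, both above the matrix fibroblast-like level. The last of these also had 28 of the 37 Flt1 UMIs found in unnamed lung cells. Within the matrix fibroblast-like class, a cluster of 28 cells had 141 CPM of Vegfa, where the class as a whole had 37.0 CPM, and Nrp1 made up 58.8% of its neuropilin UMIs.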
